A study of Homo sapiens with 12 samples.

Results

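The voltage-gated ion channel genes are 137 protein-coding genes of 58735 genes in the count table, of which 19951 were protein-coding. They were chosen by name alone, as the genes whose symbols begin with KCN (potassium channels), CACNA, CACNB or CACNG (calcium channels) or SCN and a number (sodium channels). The name rule is broader than voltage gating, because it also takes the inward rectifiers (KCNJ), the tandem-pore leak channels (KCNK), the calcium-activated SK channels (KCNN) and auxiliary subunits that carry no current.

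PolyA RNA was sequenced from C4.2B, an established castration-resistant prostate cancer cell line derived from LNCaP, in 4 arms with 3 libraries each. The DMSO arm received vehicle, the AKTi arm 0.25 μM ipatasertib, an AKT inhibitor, the EZH2i arm 1 μM tazemetostat, an EZH2 inhibitor, and the combination arm both. Cells of the EZH2i and combination arms had 6 days of tazemetostat before the final 24 hours, whereas ipatasertib was given only for those 24 hours, so the agents differ in exposure as well as in target. All arms, vehicle included, spent the final 24 hours in medium with charcoal-stripped serum, in which androgens are depleted. The libraries came from plates of a single cell line, and p-values therefore measure the spread between these libraries, which may be technical.

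Voltage-gated channels open a pore for potassium, calcium or sodium when the membrane potential changes, and the auxiliary subunits set their traffic, gating and inactivation. Inward rectifiers and tandem-pore channels hold the resting potential, and calcium-activated channels couple it to intracellular calcium. The genes are best known from neurons, muscle and secretory cells, where each cell type uses a few of them, but epithelial cells also rely on potassium channels for volume control and salt transport. EZH2 is the enzyme of Polycomb repressive complex 2, which methylates histone H3 at genes kept silent outside their own lineage, and neuronal genes are among its known targets.

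Library totals ran from 14133755 to 22276417 counts, and edgeR's quasi-likelihood test was run on the 16646 genes that passed a filter on low counts. Of the 137 channel genes 51 were tested and 86 were not, and 29 had no count in any of the 12 libraries. The 9 luminal prostate markers fixed for the check of the cell line (such as KLK3 and HOXB13) were all tested, and their summed normalized counts ran from 62639 to 65883 in DMSO and from 138931 to 143215 in the combination. KLK3 was the largest part of both sums (22384 ± 637 and 63415 ± 1025, mean ± SD), and HOXB13 was the 1 marker that fell in the combination, from 6925 ± 361 to 4732 ± 148 (-0.53 ± 0.06 SE, edgeR adjusted p = 1.01e-10). The neuroendocrine list summed to 31.6 to 38.3 normalized counts in DMSO and 37.2 to 52.1 in EZH2i, with 1 of its 8 genes tested and not called. In bulk RNA, fewer cells of a type and less RNA per cell cannot be told apart.

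In vehicle-treated cells the channel genes were a small fraction of the transcriptome, led by potassium channel genes. They took 0.0275% to 0.0292% of all counts in the DMSO libraries. Levels per gene length (RPKM, counts scaled by library size and by the deposited gene length, mean ± SD of 3 libraries) were led by KCNK1, a tandem-pore leak channel, at 9.47 ± 0.648. KCNN2, the pore of a small-conductance calcium-activated potassium channel, followed at 4.52 ± 0.325 and KCNK5, an alkaline-activated leak channel of epithelia, at 4.42 ± 0.495, a pair that did not differ beyond its spread. Lower levels were those of KCNS3 (2.81 ± 0.254), a modifier subunit with no current of its own, and CACNB3 (2.77 ± 0.108), an intracellular calcium channel subunit, which also lay within each other's spread. The most abundant calcium channel pore was CACNA1D, at 0.0963 ± 0.02, and the most abundant sodium channel pore was SCN8A, at 0.06 ± 0.00942. In EZH2i the order was led by KCNN2 at 14.6 ± 0.14, ahead of KCNK5 at 8.51 ± 1.09, CACNB3 at 5.78 ± 0.342 and KCNK1 at 5.66 ± 0.681, and in the combination KCNN2 stood at 15.2 ± 0.141, above CACNB3 at 6.64 ± 0.231.

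**Figure D1:**
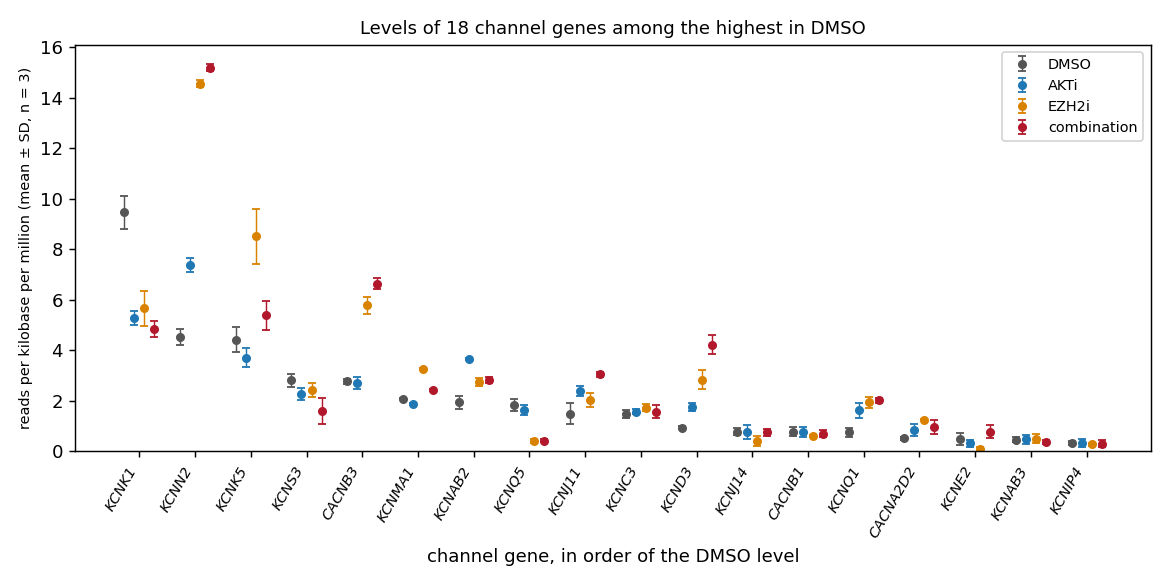
RPKM, the level per gene length and library size (y axis, linear, mean ± SD of 3 libraries) of 18 channel genes among those with the highest DMSO level (x axis, in order of that level) in the DMSO, AKTi, EZH2i and combination arms. KCNK1 is highest in DMSO at 9.47 and KCNN2 is highest in EZH2i at 14.6 and in the combination at 15.2.

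More channel genes gave reads in the tazemetostat-treated arms. The DMSO libraries held a count for 64, 67 and 71 channel genes and the AKTi libraries for 71, 67 and 73, against 86 in each EZH2i library and 84, 86 and 87 in the combination. The arms with tazemetostat did not overlap those without it. Brought to the total of the smallest library, the expected numbers were 62.7 to 67.5 in DMSO, 66.8 to 72.6 with ipatasertib, 81.9 to 85.7 with tazemetostat and 81.9 to 86.8 with both. All protein-coding genes moved the same way, from 14440 to 14509 genes in DMSO to 15158 to 15366 in EZH2i at that depth. The share of counts on channel genes was 0.0501% to 0.0528% in EZH2i and 0.0525% to 0.0546% in the combination.

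**Figure D2:**
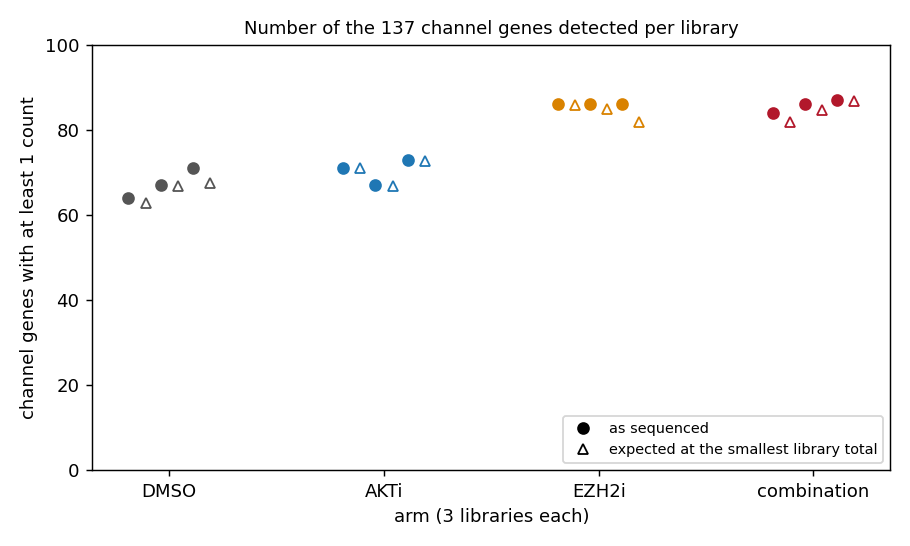
Number of the 137 channel genes with at least 1 count (y axis) in each of the 3 libraries of every arm (x axis), as sequenced (circles) and as calculated for the smallest library total (open triangles). EZH2i and combination libraries lie at 84 to 87 as sequenced, above the 64 to 73 of DMSO and AKTi.

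Tazemetostat alone raised 30 of the 51 tested channel genes and lowered 6 at an adjusted p under 0.05, when 32.6% of all tested genes rose and 31.5% fell. The median log2 fold change was 1.06 over the tested channel genes and 0.03 over all tested genes. This count cannot be read as a share of the channel genes, since 22 of the 51 had fewer than 10 counts in some DMSO library and such genes could pass the filter through their counts in treated arms. Testing of the 29 with at least 10 counts in every DMSO library depended less on the treated arms. Of the 29, 14 rose (48.3%) and 5 fell (17.2%), beside 30.2% higher and 37.1% lower among the 14047 genes of that kind. Their median was 0.46 against -0.07. Scaling by library size alone moved the median of all genes from 0.03 to 0.17 and the split of all genes to 39.8% higher and 25.2% lower, with 33 channel genes higher and 5 lower. At least 1 gene of each of the 10 families rose, and KCNQ5, KCNK1, KCNE2, KCNAB1 and KCNJ14 were among the 6 that fell.

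**Figure D3:**
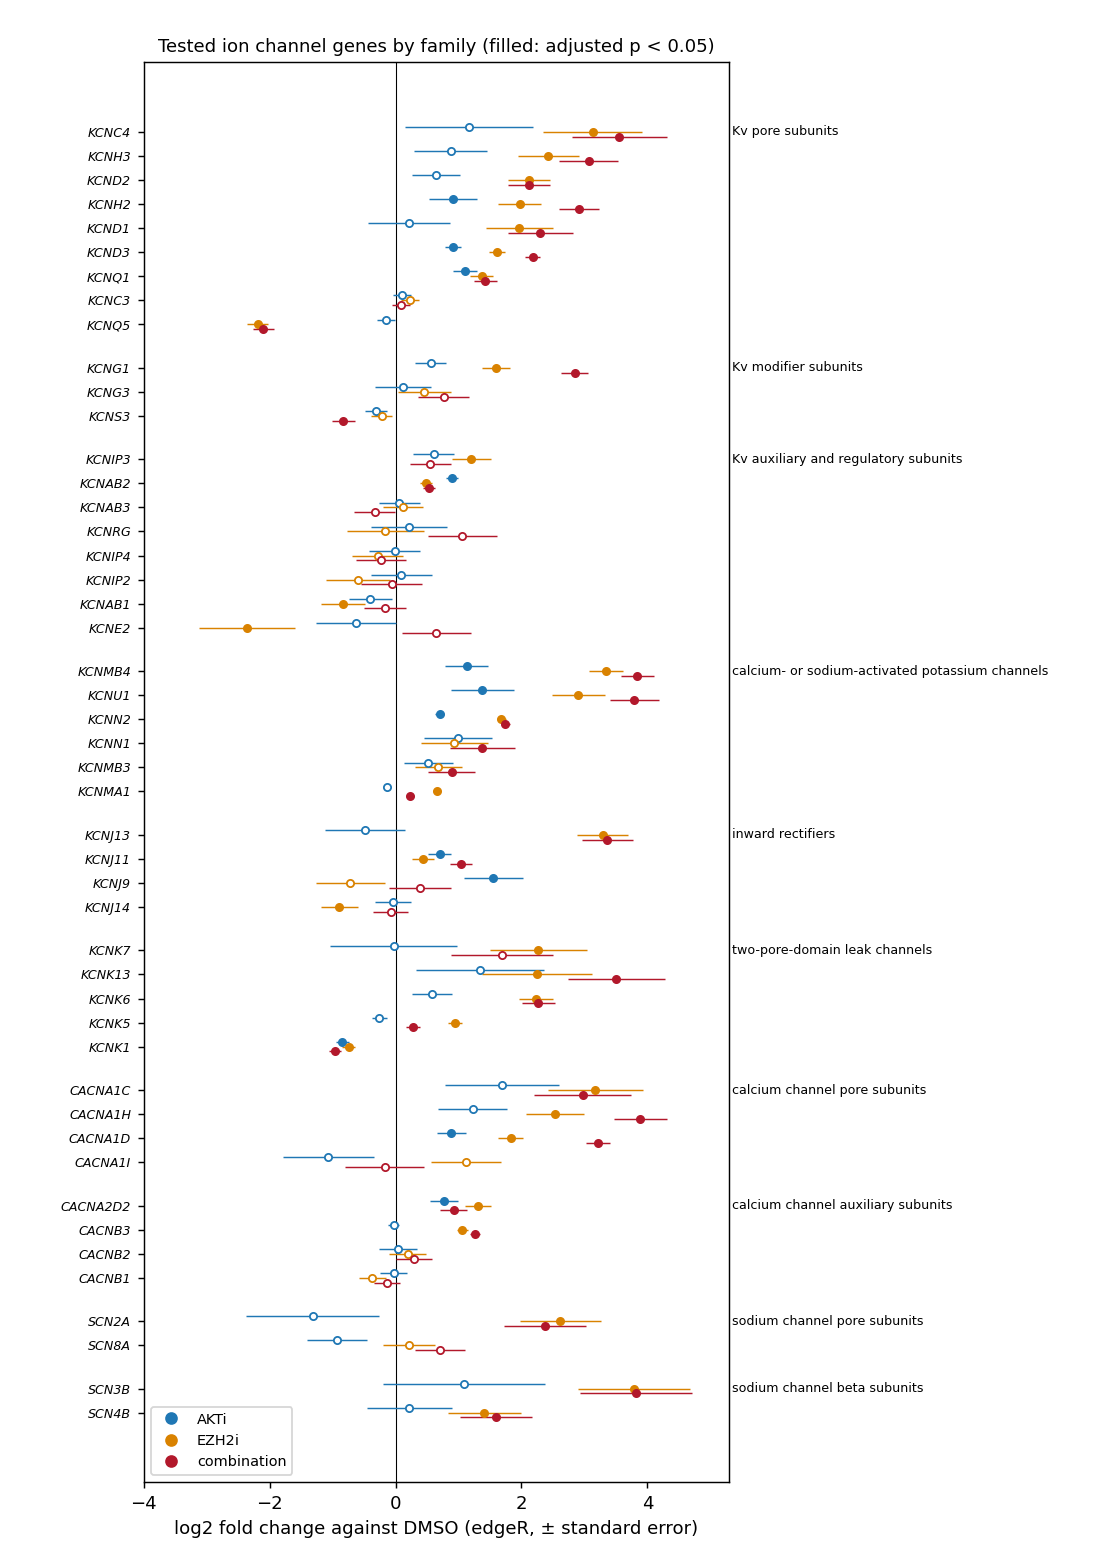
Log2 fold change against DMSO (x axis, edgeR estimate ± SE) of 47 tested channel genes (y axis, grouped by family) for AKTi, EZH2i and the combination, filled where the adjusted p is under 0.05. KCNQ5 lies at -2.19 in EZH2i, while KCNMB4 lies at 3.34 and KCND3 at 1.61.

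Among the 30 pore subunits of voltage-gated potassium channels (KCNA, KCNB, KCNC, KCND, KCNH and KCNQ), 11 were tested. Of these 8 rose and 2 fell with EZH2i, beside 32.6% and 31.5% of all tested genes. Among the 8, KCNC4, KCND1, KCND2, KCNH2 and KCNH3 had under 10 counts in at least 1 DMSO library. These could pass the filter through the treated arms. KCND3 (hg38 chr1:111770662-111989155), a pore of the fast transient A-type current, gave 112, 117 and 128 normalized counts in DMSO, 215, 249 and 209 with ipatasertib, 327, 338 and 417 with tazemetostat and 591, 489.7 and 523 with both. The 4 arms were separate from each other at this gene. The log2 fold change against DMSO was 1.61 ± 0.12 SE (edgeR adjusted p = 2.82e-14) in EZH2i and 2.18 ± 0.12 SE (edgeR adjusted p = 1.04e-18) in the combination. Its relative KCND2 gave 15.3, 14.3 and 6.33 normalized counts in DMSO and 53.1, 50.2 and 47.7 in EZH2i, with no overlap, and the log2 fold change was 2.12 ± 0.33 SE (edgeR adjusted p = 8.21e-07). KCNH2, whose product carries the rapid delayed rectifier current of the heart, gave 4.38, 10.8 and 15.8 in DMSO, 19.8, 22.8 and 18.1 with ipatasertib, 50.9, 40.8 and 35.7 with tazemetostat and 82.9, 86.1 and 73.6 with both. Every EZH2i library lay above all DMSO and AKTi libraries and every combination library above all EZH2i libraries. The change was 1.97 ± 0.34 SE (edgeR adjusted p = 3.4e-06) in EZH2i and 2.92 ± 0.32 SE (edgeR adjusted p = 2.34e-10) in the combination.

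Within the KCNQ family, members moved in opposite directions. KCNQ5 (hg38 chr6:72621792-73198851), a pore of the slow M-type current, gave 190.3, 245 and 239 normalized counts in DMSO and 223, 203 and 177 in AKTi, but 60.6, 45.5 and 42.5 in EZH2i and 52.5, 45.4 and 57.2 in the combination. Both tazemetostat arms lay below every library without tazemetostat, with a log2 fold change of -2.19 ± 0.17 SE (edgeR adjusted p = 5.91e-14) in EZH2i. KCNQ1, a pore of heart and epithelia, rose from 39.4, 63.3 and 60.1 in DMSO to 139.7, 123 and 155 in EZH2i, a log2 fold change of 1.37 ± 0.18 SE (edgeR adjusted p = 3.02e-08). The antisense transcript KCNQ1OT1 overlaps KCNQ1, and since the strand setting of the counting is not given in the sources used here, reads of the pair cannot be told apart. KCNC4, KCND1 and KCNH3, which also rose, had 4, 14 and 16 counts over the 3 DMSO libraries. For KCNC4 the ratio to DMSO of CPM (counts scaled to the TMM-adjusted library total) was 9.16 (exact 95% counting interval 3.31 to 35.2) in EZH2i, and KCNH3 lies over MCRS1, a gene of the other strand with far more counts.

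The stretches before the transcription starts of 4 channel genes are shown. These genes changed with EZH2i and had a single listed start, with a stretch before it clear of every annotated exon and of the gene as counted. They are a selection, since 6 called channel genes met these terms after genes of 1 chromosome were left out. Shown are KCNC4, KCNK6 and KCND2, with the largest rises among the 6, and KCNE2, which fell. The stretches are the first 240 of the 250 bases upstream of the RefSeq start (GRCh38.p14), all on the plus strand. Relative to the start of the gene as counted, the RefSeq start lay at -1029 bases for KCNC4, 1 for KCNK6, -493 for KCND2 and -18 for KCNE2. They are given in lower case with the CG dinucleotides in capitals.
KCNC4, chr1:110210064-110210303: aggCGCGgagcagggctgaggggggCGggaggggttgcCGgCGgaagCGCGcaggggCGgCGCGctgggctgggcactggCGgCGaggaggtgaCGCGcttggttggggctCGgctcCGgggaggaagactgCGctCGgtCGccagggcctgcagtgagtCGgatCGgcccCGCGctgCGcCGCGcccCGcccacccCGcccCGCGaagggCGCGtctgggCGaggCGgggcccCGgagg
KCNK6, chr19:38319595-38319834: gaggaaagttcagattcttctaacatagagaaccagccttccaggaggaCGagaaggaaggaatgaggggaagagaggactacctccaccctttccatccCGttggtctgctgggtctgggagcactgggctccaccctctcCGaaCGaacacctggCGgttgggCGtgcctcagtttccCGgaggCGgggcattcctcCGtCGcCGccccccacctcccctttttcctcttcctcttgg
KCND2, chr7:120272925-120273164: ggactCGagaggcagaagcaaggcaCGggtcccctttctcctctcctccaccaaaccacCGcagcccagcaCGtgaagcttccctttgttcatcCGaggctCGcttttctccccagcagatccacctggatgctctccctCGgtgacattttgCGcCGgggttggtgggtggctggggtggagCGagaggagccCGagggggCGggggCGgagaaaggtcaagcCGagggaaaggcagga
KCNE2, chr21:34363756-34363995: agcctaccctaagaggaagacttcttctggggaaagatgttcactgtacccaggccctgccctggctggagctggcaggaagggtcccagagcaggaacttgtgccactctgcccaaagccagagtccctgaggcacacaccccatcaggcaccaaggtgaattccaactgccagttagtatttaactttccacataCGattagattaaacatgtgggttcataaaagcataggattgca
KCNC4, KCNK6 and KCND2 were higher and KCNE2 lower in EZH2i than in DMSO. The windows hold 35, 11, 14 and 1 CG dinucleotides in that order, against a median of 10 and quartiles of 3 and 22 over 35116 such windows, and as many or more CG were found in 4.5%, 49.1%, 43.4% and 93.5% of all windows. The letters CACGTG, which read the same on both strands, were found in the KCND2 window and in 6.0% of all windows, and TATAAA on either strand in none of the 4 and in 10.6% of all. A window was given for 98 of the 137 channel genes (71.5%), under the 80% taken as the minimum, so that base composition over the whole family was not compared.

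Of the 10 modifier subunits, which pair with potassium pores but form none, 3 were tested. KCNG1 gave 24.1, 26.3 and 22.9 normalized counts in DMSO, 37.3, 33.0 and 36.1 with ipatasertib, 83.4, 59.7 and 76.0 with tazemetostat and 189.5, 152 and 175 with both, so that the 4 arms formed separate steps. The log2 fold change was 1.59 ± 0.22 SE (edgeR adjusted p = 8.62e-08) in EZH2i and 2.84 ± 0.21 SE (edgeR adjusted p = 6.84e-15) in the combination. KCNS3 was not called in EZH2i (-0.22 ± 0.17 SE, edgeR adjusted p = 0.265) and fell in the combination from 148, 128 and 155 in DMSO to 73.8, 57.4 and 109, without overlap, a change of -0.83 ± 0.18 SE (edgeR adjusted p = 9.51e-05). KCNG3 was called in none of the 6 comparisons.

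Of the 14 auxiliary and regulatory potassium channel genes 8 were tested. With EZH2i 2 rose and 2 fell, beside 32.6% and 31.5% of all tested genes. KCNAB2, a cytoplasmic beta subunit with an aldo-keto reductase fold, gave 258, 308 and 342 normalized counts in DMSO, 555, 565 and 570.1 with ipatasertib, 438, 393 and 436 with tazemetostat and 457, 431 and 411 with both. It was highest with AKTi alone, in which no library overlapped another arm. KCNAB2 overlaps NPHP4 on the other strand, which averaged 333 counts in DMSO and 381 in EZH2i. KCNIP3, a calcium sensor that binds A-type channels, changed by 1.20 ± 0.31 SE (edgeR adjusted p = 0.000887) in EZH2i. The falls were in KCNAB1 (-0.83 ± 0.35 SE, edgeR adjusted p = 0.0366) and in KCNE2 (-2.36 ± 0.76 SE, edgeR adjusted p = 0.00685), a single-pass partner of KCNQ1 and KCNH2 with 25 counts over the DMSO libraries. The KCNAB1 call was lost without DMSO replicate C, EZH2i replicate A or EZH2i replicate C, and the KCNE2 call without DMSO replicate A.

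The calcium- or sodium-activated potassium channels, with their beta subunits and the related KCNU1, comprise 12 genes, 6 of them tested. Of these 4 rose with EZH2i and all 6 with the combination, beside 32.6% and 38.0% of all tested genes. KCNMB4, KCNU1 and KCNN1 had under 10 counts in at least 1 DMSO library and could pass the filter through the treated arms. KCNN2 (hg38 chr5:114055545-114496500) gave 442, 476 and 518 normalized counts in DMSO, 753, 811 and 762 with ipatasertib, 1537, 1539.6 and 1514 with tazemetostat and 1612, 1580.2 and 1568 with both. AKTi lay between DMSO and the tazemetostat arms without overlap, and the log2 fold change was 0.70 ± 0.07 SE (edgeR adjusted p = 2.42e-10) in AKTi and 1.68 ± 0.07 SE (edgeR adjusted p = 4.25e-22) in EZH2i. KCNMA1, the pore of the large-conductance BK channel, gave 1207, 1183 and 1224 in DMSO, 1107, 1062 and 1083 with ipatasertib, 1892, 1870.5 and 1881 with tazemetostat and 1424, 1384 and 1372 with both. Its replicates were close enough that all 4 arms stood apart, with changes of 0.65 ± 0.06 SE (edgeR adjusted p = 1.66e-12) in EZH2i and -0.14 ± 0.06 SE (edgeR adjusted p = 0.0506), not called, in AKTi. KCNMB4 (hg38 chr12:70366276-70434292), the beta subunit of the BK channel known from brain, rose from 8.75, 8.37 and 10.3 in DMSO to 16.3, 19.4 and 24.8 with ipatasertib, 96.4, 91.0 and 95.3 with tazemetostat and 116, 146 and 136 with both. These 4 arms did not overlap either. Its log2 fold change was 3.34 ± 0.26 SE (edgeR adjusted p = 9.74e-14) in EZH2i and 3.84 ± 0.26 SE (edgeR adjusted p = 4.26e-16) in the combination, beside 0.65 and 0.23 for its pore. KCNU1, the alkaline-sensitive potassium channel of sperm, had 15 counts over the DMSO libraries and changed by 2.90 ± 0.42 SE (edgeR adjusted p = 1.39e-07) in EZH2i. KCNN1 and KCNMB3 were called in the combination only among the contrasts with DMSO, at 1.38 ± 0.52 SE (edgeR adjusted p = 0.0167) and 0.89 ± 0.37 SE (edgeR adjusted p = 0.0302), and their difference between the combination and EZH2i was not called. KCNMB3 overlaps PIK3CA on the other strand, and its call was lost without DMSO replicate B, DMSO replicate C or combination replicate A.

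**Figure D4:**
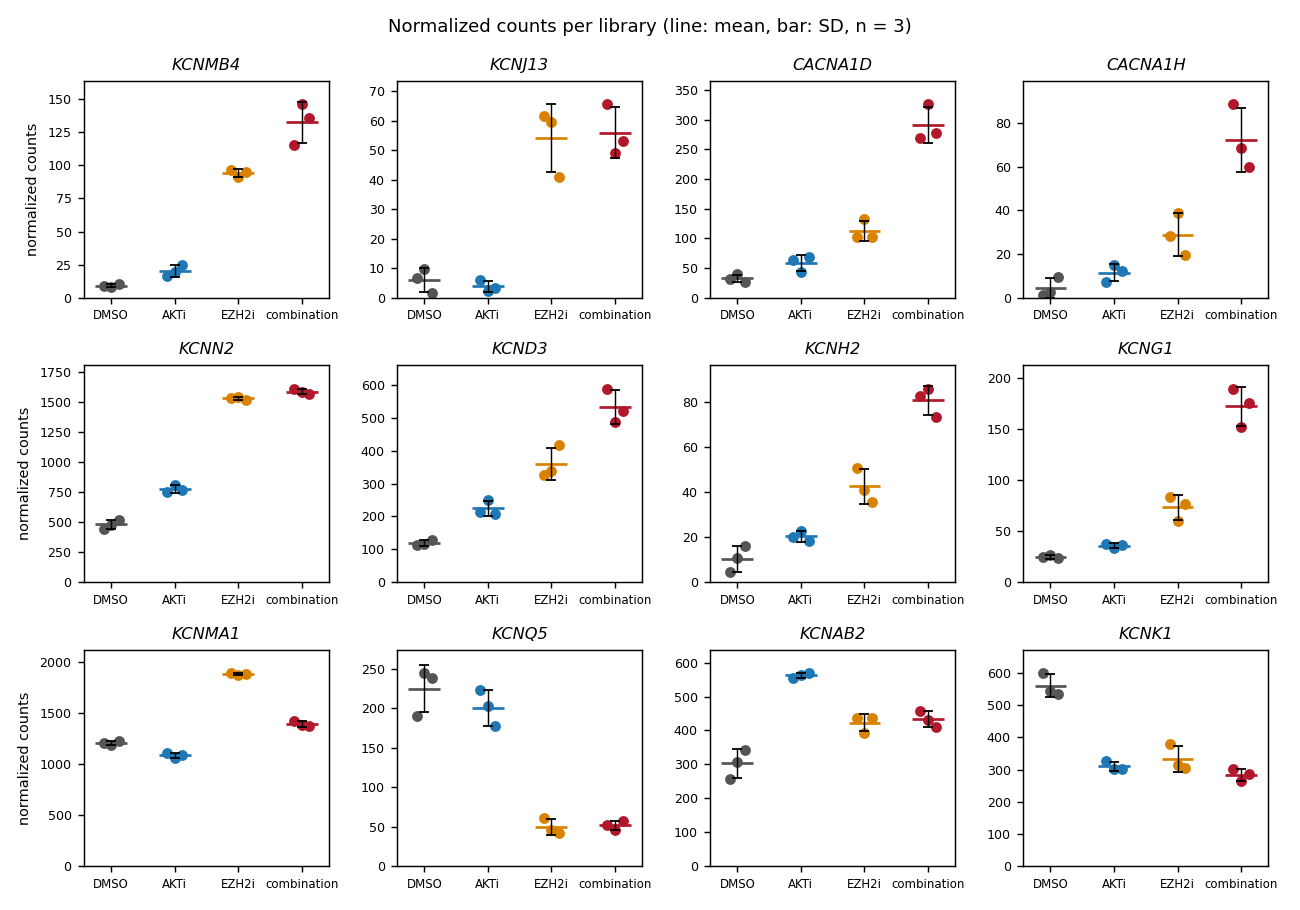
Normalized counts (y axis, linear, from 0) of 12 channel genes in each library of the DMSO, AKTi, EZH2i and combination arms (x axis). Points are libraries, the line is the mean and the bar the SD of 3. CACNA1D, CACNA1H, KCND3, KCNH2 and KCNG1 step up to their highest values in the combination, KCNMA1 is highest in EZH2i, KCNAB2 is highest in AKTi, and KCNQ5 is low in both tazemetostat arms.

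Of the 16 inward rectifiers 4 were tested. Among these, KCNJ13 and KCNJ9 had under 10 counts in at least 1 DMSO library and could pass the filter through the treated arms. KCNJ13, a channel of retinal pigment and other transporting epithelia, gave 6.56, 9.56 and 1.58 normalized counts in DMSO and 5.83, 2.28 and 3.39 in AKTi, and 61.7, 59.7 and 41.0 in EZH2i and 65.6, 49.1 and 53.3 in the combination. The arms with and without tazemetostat did not overlap, and the log2 fold change was 3.29 ± 0.41 SE (edgeR adjusted p = 7.15e-09) in EZH2i and -0.48 ± 0.64 SE (edgeR adjusted p = 0.583), not called, in AKTi. KCNJ13 lies over GIGYF2, a gene of the other strand that averaged 1281 counts in DMSO and 1830 in EZH2i. KCNJ11, the pore of the ATP-sensitive channel, changed by 0.44 ± 0.18 SE (edgeR adjusted p = 0.029) in EZH2i, where DMSO and EZH2i libraries overlapped and the call was lost without any of 6 libraries, and by 1.04 ± 0.17 SE (edgeR adjusted p = 1.2e-06) in the combination, where they did not. KCNJ14 fell by 0.89 on the log2 scale in EZH2i (SE 0.296, edgeR adjusted p = 0.0088), a call lost without DMSO replicate C or EZH2i replicate A, and it overlaps GRWD1 on the same strand, which averaged 921 counts in DMSO and 541 in EZH2i. KCNJ9, a G-protein-gated subunit, rose with AKTi only among the contrasts with DMSO, from 8.75, 5.98 and 17.4 to 36.2, 19.4 and 42.9, without overlap (1.55 ± 0.47 SE, edgeR adjusted p = 0.00659), a call lost without AKTi replicate C.

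Of the 15 tandem-pore leak channels 5 were tested, 4 of which rose and 1 fell with EZH2i, beside 32.6% and 31.5% of all tested genes. KCNK1 (hg38 chr1:233614004-233672512) gave 601, 545 and 535 normalized counts in DMSO, 327, 302 and 300.3 with ipatasertib, 378, 315 and 305 with tazemetostat and 302, 263 and 285 with both. Every treated library lay below every DMSO library. It was the single channel gene called lower with AKTi, at -0.84 ± 0.10 SE (edgeR adjusted p = 8.34e-09), and changed by -0.75 ± 0.10 SE (edgeR adjusted p = 1.98e-08) with EZH2i. KCNK5 gave 235, 290.4 and 287 in DMSO, 577, 447 and 529.5 in EZH2i and 287, 347 and 342 in the combination, a rise of 0.94 ± 0.11 SE (edgeR adjusted p = 2.04e-09) in EZH2i that was smaller in the combination (0.28 ± 0.11 SE, edgeR adjusted p = 0.0265, a call lost without any of 7 libraries). KCNK6, a weakly inward-rectifying leak channel, rose from 17.5, 17.9 and 19.0 in DMSO to 72.6, 95.8 and 87.1 in EZH2i and 73.0, 95.4 and 93.0 in the combination, without overlap (2.23 ± 0.27 SE, edgeR adjusted p = 3.45e-09 in EZH2i). KCNK13 and KCNK7, with 3 and 6 counts over the DMSO libraries, were also called higher, and they could pass the filter through the treated arms. The ratio of CPM to DMSO was 5.19 (exact 95% counting interval 1.5 to 27.6) in EZH2i for KCNK13, a call lost without any of 4 libraries, and 4.88 (exact 95% counting interval 2.01 to 14.3) for KCNK7.

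Of the 10 calcium channel pores 6 were not tested. Of the 4 tested, CACNA1D, CACNA1H and CACNA1C rose with EZH2i and with the combination, beside 32.6% and 38.0% of all tested genes. CACNA1H and CACNA1C had under 10 counts in at least 1 DMSO library and could pass the filter through the treated arms. CACNA1D (hg38 chr3:53328963-53813733), the L-type pore that opens at low voltage, gave 30.6, 39.4 and 26.9 normalized counts in DMSO, 63.0, 43.3 and 68.9 with ipatasertib, 103, 132 and 102 with tazemetostat and 269, 326 and 278 with both. The arms were ordered DMSO, AKTi, EZH2i and combination with no library out of place. Its log2 fold change was 0.89 ± 0.22 SE (edgeR adjusted p = 0.00135) with ipatasertib, 1.83 ± 0.20 SE (edgeR adjusted p = 4.23e-10) with tazemetostat and 3.21 ± 0.19 SE (edgeR adjusted p = 7.23e-18) with both. CACNA1D overlaps CHDH on the other strand, which averaged 1093 counts in DMSO and 713 in EZH2i. CACNA1H, a T-type pore, gave 1.09, 2.39 and 9.49 in DMSO, 7.0, 14.8 and 12.4 with ipatasertib, 28.2, 38.9 and 19.4 with tazemetostat and 88.6, 68.5 and 60.1 with both. DMSO and AKTi overlapped, and the other neighbours in this order did not. The change was 2.53 ± 0.47 SE (edgeR adjusted p = 1.18e-05) in EZH2i and 3.89 ± 0.43 SE (edgeR adjusted p = 2.83e-10) in the combination. CACNA1C, the L-type pore of heart and smooth muscle, had 4 counts over the DMSO libraries and a ratio of 9.84 (exact 95% counting interval 3.58 to 37.8) in EZH2i, and it overlaps DCP1B on the other strand. CACNA1I, another T-type pore, was called in no comparison.

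Of the 16 auxiliary subunits of calcium channels 4 were tested and 2 rose with EZH2i, beside 32.6% of all tested genes. CACNB3, a beta subunit that brings pores to the membrane, gave 307, 327 and 334 normalized counts in DMSO, 335, 286 and 323 with ipatasertib, 713, 637 and 661 with tazemetostat and 741, 788 and 763 with both. The tazemetostat arms lay above the others and the combination above EZH2i, with changes of 1.06 ± 0.09 SE (edgeR adjusted p = 1.76e-13) in EZH2i and -0.03 ± 0.09 SE (edgeR adjusted p = 0.823), not called, in AKTi. CACNA2D2, an extracellular subunit, rose from 59.1, 52.6 and 45.1 in DMSO to 128, 126 and 129 in EZH2i, without overlap (1.31 ± 0.21 SE, edgeR adjusted p = 1.2e-06). CACNB1 and CACNB2 were called in no comparison, with log2 fold changes of -0.37 ± 0.21 and 0.19 ± 0.29 (SE) in EZH2i.

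Sodium channel genes stayed at low counts throughout. SCN2A, a pore of central neurons, gave 0, 8.37 and 1.58 normalized counts in DMSO and 28.2, 11.4 and 18.6 in EZH2i, which did not overlap, and changed by 2.62 ± 0.64 SE (edgeR adjusted p = 0.000525), but it shares its place with the transcript AC019197.1, which averaged 6.67 counts in DMSO and 25.7 in EZH2i. SCN8A, a neuronal pore, was not called in EZH2i (0.21 ± 0.41, SE). Of the 4 beta subunits, adhesion-like proteins that flank the pore, 3 were tested and all 3 rose with EZH2i and with the combination. SCN3B went from 2 counts over the DMSO libraries to 35 over the EZH2i libraries, a ratio of 16.0 (exact 95% counting interval 4.12 to 138). SCN4B changed by 1.41 ± 0.58 SE (edgeR adjusted p = 0.0322) in EZH2i, a call lost without any of 5 libraries.

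Channel genes below the testing filter also held more counts in the arms with tazemetostat. The 86 untested channel genes held 189 counts in all over the DMSO libraries, 176 with ipatasertib, 446 with tazemetostat and 395 with both. In CPM this was 3.57 to 4.06 in DMSO, 3.69 to 4.59 with ipatasertib, 6.25 to 9.78 with tazemetostat and 6.54 to 8.88 with both, so that the tazemetostat arms stood above the others. By CPM summed over each group, 38 of the 86 were higher in EZH2i than in DMSO, 12 were lower and 36 had no count in either, which is 44.2% higher and 14.0% lower, beside 37.4% and 17.6% of the 6868 protein-coding genes that were not tested. Those protein-coding genes together went from 289 to 329 CPM in DMSO to 522 to 532 in EZH2i, so that the higher counts were not particular to channel genes. KCNH6, a relative of KCNH2, had 0 counts over the DMSO libraries, 2 with ipatasertib, 25 with tazemetostat and 12 with both, and was at least 7.63-fold higher in EZH2i against a floor of 3 counts over the DMSO group, which allows up to 0.0609 CPM. KCNC2, a pore of fast-spiking neurons, had 0, 0, 17 and 7 counts in that order of arms, at least 5.19-fold higher in EZH2i. SCN9A, a pore of sensory neurons, had 0, 0, 12 and 16, at least 4.9-fold higher in the combination. CACNA1B, the N-type pore of nerve terminals, had 0 in DMSO, 9 with ipatasertib, 11 with tazemetostat and 14 with both. KCNK3, an acid-sensitive leak channel, had 1 count in DMSO, 35 in EZH2i and 10 in the combination, a ratio of 32.0 (exact 95% counting interval 5.39 to 1301) in EZH2i and of 9.19 (exact 95% counting interval 1.31 to 399) in the combination. These intervals and floors cover counting error only, and the 5 genes were picked after their counts were seen.

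Some of the channel genes that lie within 200 kb of each other are given with their counts. Of these SCN2A, KCNK5 and KCNE2 were tested, and the others had too few counts to show whether a change was shared. SCN2A and SCN3A overlap on chromosome 2, and SCN3A went from 0 counts in DMSO and AKTi to 10 in EZH2i and 13 in the combination. SCN9A, further along that chromosome, is flanked by SCN1A with 0, 0, 1 and 2 counts in DMSO, AKTi, EZH2i and combination and by SCN7A with none. On chromosome 6, KCNK17 had 8 counts in EZH2i and none in DMSO, 69550 bases from KCNK5, while KCNK16 beside it had no count in any arm. KCNE1, 75298 bases from KCNE2 on chromosome 21, had 5 counts in both DMSO and EZH2i, where KCNE2 fell.

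Ipatasertib alone raised 12 of the 51 tested channel genes (23.5%) and lowered 1 (1.96%), beside 20.6% higher and 21.9% lower among all tested genes. The share that rose was thus close to the background and the share that fell was below it. However, 22 of the 51 had under 10 counts in some DMSO library, which leaves little room for a fall to be called. Among the 29 with at least 10 counts in every DMSO library, 8 rose and 1 fell (27.6% and 3.45%), beside 22.3% and 25.8%. The median log2 fold change was 0.22 over the 51 and 0.09 over the 29. The genes that rose included KCND3, KCNH2 and KCNQ1 among the voltage-gated potassium pores, KCNAB2, the calcium-activated or related KCNN2, KCNMB4 and KCNU1, the rectifiers KCNJ9 and KCNJ11, and the calcium channel genes CACNA1D and CACNA2D2. KCNQ1 rose from 39.4, 63.3 and 60.1 normalized counts in DMSO to 96.8, 112 and 141 in AKTi, without overlap, a change of 1.11 ± 0.19 SE (edgeR adjusted p = 8.06e-06). KCND3 changed by 0.92 ± 0.13 SE (edgeR adjusted p = 2.75e-07), KCNAB2 by 0.90 ± 0.10 SE (edgeR adjusted p = 9.13e-10) and CACNA2D2 by 0.77 ± 0.22 SE (edgeR adjusted p = 0.0044). The KCNH2 call (0.91 ± 0.38 SE, edgeR adjusted p = 0.0491) was lost when any of 10 libraries was left out, that of KCNU1 without any of 3, and those of KCNMB4 without AKTi replicate C and of CACNA2D2 without AKTi replicate B. Without AKTi replicate C, 8 channel genes were called higher.

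The combination raised 29 of the 51 tested channel genes and lowered 4, beside 38.0% higher and 35.2% lower among all tested genes, and the median was 1.04 against 0.06. Among the 29 with at least 10 counts in every DMSO library, 13 rose and 4 fell, beside 34.8% and 41.4%. KCNQ5, KCNK1 and KCNS3 were among the 4 that fell. Scaling by library size alone moved the median of all genes to 0.26 and gave 35 channel genes higher and 4 lower, beside 45.5% and 28.5% of all tested genes.

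The effect of tazemetostat was also measured against AKTi, in libraries that the comparison of EZH2i with DMSO did not use. Between the combination and AKTi, 23 of the 51 were higher and 6 lower, beside 32.1% higher and 32.1% lower among all tested genes. Among the 29 it was 9 higher and 5 lower, beside 29.9% and 37.7%. Scaling by library size alone gave 27 higher and 4 lower, beside 39.3% and 26.0% of all tested genes. Of the 30 genes that rose with EZH2i over DMSO, 22 were also higher in the combination than in AKTi, which is 73.3% of the former and 95.7% of the latter, while over all genes these shares were 72.1% and 73.1%. Genes with few DMSO counts could pass the filter through the arms where they were high, and among the 29 with at least 10 counts in every DMSO library 8 were higher in both, 57.1% of the 14 and 88.9% of the 9, beside 72.2% and 72.8% over all genes of that kind. Of the 6 lower genes in each comparison 2 were lower in both, KCNQ5 among them, which is 33.3% of each, beside 77.7% and 76.3% over all genes. KCNAB2 was higher in EZH2i than in DMSO and lower in the combination than in AKTi, at -0.37 ± 0.09 SE (edgeR adjusted p = 0.000664) for the latter comparison.

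Adding ipatasertib to tazemetostat raised 11 of the 51 tested channel genes over EZH2i alone (21.6%) and lowered 4 (7.84%), beside 21.1% and 25.7% of all tested genes. Among the 29 it was 6 higher and 4 lower, beside 22.0% and 29.6%. The rises included the calcium pores CACNA1D (1.38 ± 0.15 SE, edgeR adjusted p = 1.49e-09) and CACNA1H (1.36 ± 0.32 SE, edgeR adjusted p = 0.000677), and the potassium channel genes KCNG1 (1.25 ± 0.18 SE, edgeR adjusted p = 2.54e-07), KCNH2 (0.95 ± 0.26 SE, edgeR adjusted p = 0.00271) and KCND3 (0.57 ± 0.10 SE, edgeR adjusted p = 1.78e-05). The falls included KCNK5 (-0.66 ± 0.11 SE, edgeR adjusted p = 2.97e-06), KCNMA1 (-0.42 ± 0.06 SE, edgeR adjusted p = 7.11e-08) and KCNS3. The call of KCNS3 was lost without combination replicate B. Ipatasertib raised CACNA1D, KCND3, KCNH2, KCNJ11, KCNMB4 and KCNU1 both over DMSO and over EZH2i, comparisons that share no library, which is 50.0% of the 12 and 54.5% of the 11, beside 46.0% and 45.0% over all genes. Among the 29 these were CACNA1D, KCND3 and KCNJ11, 37.5% of 8 and 50.0% of 6, beside 47.1% and 47.7%. Over EZH2i the KCNMB4 call was lost without any of 4 libraries and the KCNU1 call without combination replicate A.

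Whether ipatasertib acted differently with tazemetostat present was tested by the interaction, the log2 change from EZH2i to the combination minus that from DMSO to AKTi. It was called in 9 of the 51 genes, 2 higher and 7 lower, beside 10.7% higher and 17.5% lower among all tested genes. Among the 29 it was 1 higher and 7 lower, beside 12.3% and 20.0%. KCNN2 and KCNQ1 rose with ipatasertib alone, whereas over EZH2i their estimates were 0.06 ± 0.06 and 0.06 ± 0.16 (SE), not called. KCNK1 fell with ipatasertib alone, while over EZH2i the estimate was -0.22 ± 0.10 (SE), not called. In CACNA1D, the calcium pore with the clearest steps, the change was 0.89 ± 0.22 without and 1.38 ± 0.15 with tazemetostat, and the difference of 0.50 ± 0.28 SE (edgeR adjusted p = 0.188) was not called.

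**Figure D5:**
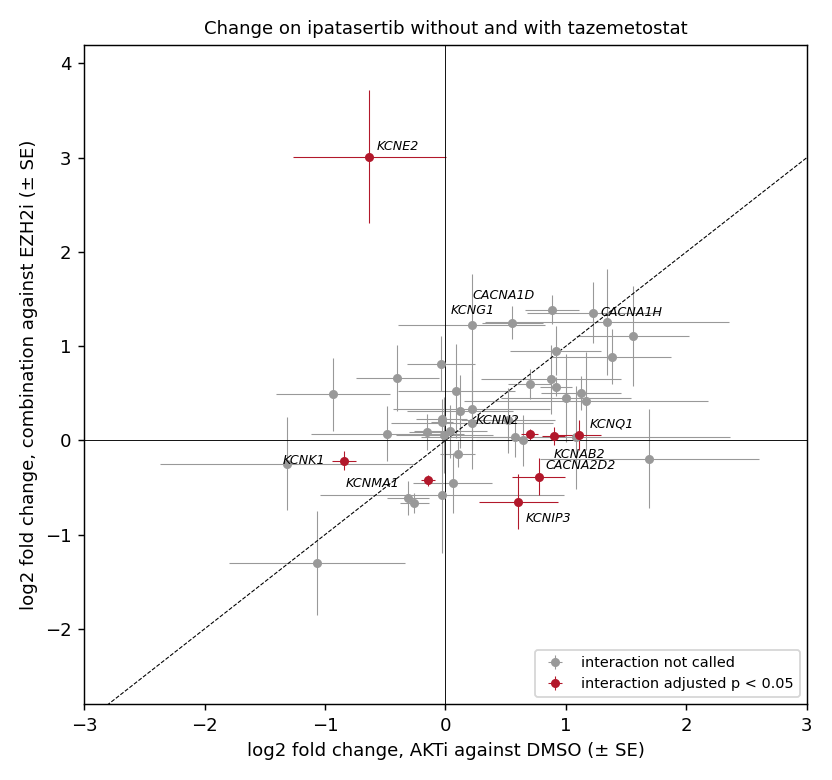
Log2 fold change (edgeR estimate ± SE) of 47 tested channel genes on ipatasertib without tazemetostat (x axis, AKTi against DMSO) and with it (y axis, combination against EZH2i). The dashed line marks equal changes, and the 8 of them whose interaction had an adjusted p under 0.05 are red. KCNE2 and KCNK1 lie above the line, and KCNQ1, KCNN2, KCNAB2, KCNIP3, CACNA2D2 and KCNMA1 lie below it.

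Genes outside the name rule that also move cations across membranes were listed separately. Of 26 tested members of other cation channel families 16 rose and 5 fell with EZH2i, beside the 32.6% and 31.5% of all tested genes. They included TRPM8, the cold-sensing channel of prostate epithelium, which went from 251 ± 34.6 normalized counts (mean ± SD, n = 3) in DMSO to 1990.0 ± 152 in EZH2i (2.99 ± 0.08 SE, edgeR adjusted p = 5.7e-27). SCNN1G, a subunit of the epithelial sodium channel, stood at 3.9 ± 2.68 in DMSO, 59.8 ± 7.74 in EZH2i and 244 ± 19.2 in the combination. ORAI1, the pore of store-operated calcium entry, changed by -0.82 ± 0.09 SE (edgeR adjusted p = 2.99e-10), and its relative ORAI3 by 1.60 ± 0.17 SE (edgeR adjusted p = 1.56e-10). Of 13 tested pumps and exchangers that set the ion gradients, 10 rose and 2 fell, among them the sodium pump subunits ATP1B1 (1.52 ± 0.06) and ATP1B3 (-0.99 ± 0.05, SE). Of 13 tested proteins that bind channels, 8 rose and 1 fell, beside the same shares of all tested genes. The lists include genes with few DMSO counts, such as SCNN1G, ATP2A3 (1.19 ± 1.19 normalized counts, mean ± SD) and GEM (3.97 ± 2.59). Such genes could pass the filter through the treated arms, so these counts cannot be read as shares of the lists.

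Markers of neurons were measured beside these genes. The list of 10 neuronal markers summed to 313 to 428 normalized counts in DMSO, 306 to 409 with ipatasertib, 1049 to 1326 with tazemetostat and 826 to 954 with both. Its 3 tested genes, MAP2, NEFL and TUBB3, rose with EZH2i, beside 32.6% of all tested genes, and MAP2 alone averaged 1142 ± 146 in EZH2i. TUBB3 averaged 6.19 ± 1.92 normalized counts in DMSO and could pass the filter through the treated arms. SNAP25 had no count in any library, NEFM and STMN2 had none outside the combination, and ELAVL3, ELAVL4 and GAP43 averaged at most 1.16 normalized counts in any arm. The muscle list held no tested gene and summed to at most 19.7 normalized counts in any library. The list of 8 stromal and immune markers summed to 112 to 177 in DMSO, 355 to 404 in EZH2i and 260 to 331 in the combination, most of it COL1A1 and VWF, which rose with EZH2i, while CD3E had no count in any library and COL1A2 none outside the combination. The part of other cell types in the channel results was not tested.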

How the data were processed

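PolyA RNA of C4.2B cells was sequenced in 12 libraries, 3 for each of 4 arms. The authors aligned reads with STAR, counted them with HTSeq (hg38, per the submitters' processing notes) and deposited raw counts per gene, together with a normalized signal that equals each count divided by 1 DESeq2 size factor per library (checked on 56994 gene names). Versions, annotation and strand setting are not given in the sources used here. Reads shared by overlapping genes or near-identical copies (KCNJ12 and KCNJ18, KCNE1 and KCNE1B) may have been split or lost. The site that sequenced each library is not assigned in the paper, so that no batch could be modelled.

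The deposited raw counts entered edgeR 4.0.16 under R 4.3.3 (filterByExpr with a minimum count of 10 and a minimum total of 15, TMM scaling, quasi-likelihood fit with 1 mean per arm over all 12 libraries). P-values were adjusted by Benjamini-Hochberg over the 16646 tested genes at a threshold of 0.05. Values per library are the deposited normalized counts. Genes named are, for each comparison, up to 10 of the largest and 10 of the smallest log2 fold changes among those called, the most abundant member of each family in DMSO, members with a DMSO mean of at most 3 counts that were called higher, and members whose ipatasertib effects were opposite. A few genes that the rule would name are not reported here, in text or figures, but stay in the counts. Genes outside this rule are named after their values were seen. The members and lists were chosen with earlier results of these data known. Folds against a group without counts are lower bounds against 3 counts over the group. Figures and promoter windows were made with Python 3.11.15, pandas and matplotlib. Alternatives were DESeq2 1.42.0, other scalings and filters, fits on the 2 arms compared alone, fits with a block for the replicate letter, and fits that left out 1 library in turn. On simulated data for EZH2i against DMSO, edgeR recovered 148 of 198 genes changed 2-fold with 14 false calls among 16176 genes. The simulation changed 200 genes, far fewer than were called in the data, around means pooled over all arms. Its figures therefore do not describe genes near 0 in DMSO. Totals of 14133755 to 22276417 counts per library leave channel genes with a few counts imprecise. The deposited gene length column belongs to no sample.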

Additional observations from a re-analysis of the deposited data

Results flagged for a closer look

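In 8 channel genes given here the change on ipatasertib differed between cells with and without tazemetostat by the interaction test (edgeR quasi-likelihood, Benjamini-Hochberg adjustment, log2 scale). The interaction, the signed change on ipatasertib with tazemetostat minus that without it, was above 0 in KCNE2, at 3.64 ± 0.96 SE (edgeR adjusted p = 0.00374), and KCNK1, at 0.63 ± 0.14 SE (edgeR adjusted p = 0.000758). KCNE2 gave 13.1, 5.98 and 6.33 normalized counts in DMSO, 2.33, 6.83 and 6.77 with ipatasertib, 3.25, 0.948 and 0.745 with tazemetostat and 8.2, 16.7 and 14.5 with both, so that every EZH2i library lay below every DMSO and combination library. It was below 0 in KCNN2, at -0.64 ± 0.09 SE (edgeR adjusted p = 1.35e-06), and KCNAB2, at -0.85 ± 0.13 SE (edgeR adjusted p = 4.3e-06). It was also below 0 in KCNQ1, at -1.05 ± 0.25 SE (edgeR adjusted p = 0.00121), CACNA2D2, at -1.16 ± 0.29 SE (edgeR adjusted p = 0.00249), and KCNMA1, at -0.28 ± 0.08 SE (edgeR adjusted p = 0.00847). For KCNIP3, at -1.25 ± 0.44 SE (edgeR adjusted p = 0.0286), the call was lost without any of 5 libraries, DMSO replicate C, AKTi replicate C, EZH2i replicates A and C and combination replicate C. A value above 0 is not a larger change, since KCNK1 changed by -0.84 on ipatasertib without tazemetostat and by -0.22 with it, and KCNMA1, below 0, by -0.14 and -0.42.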

How the results depend on the processing

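Counts of channel genes called depended most on the filter on low counts, by construction, since stricter filters test fewer genes. With at least 10 counts in every library, or in each DMSO library (the latter chosen after seeing the data), 14 and 14 genes rose with EZH2i, 14 and 13 with the combination over DMSO, 6 and 6 with the combination over EZH2i, and 10 and 9 with the combination over AKTi, beside 30, 29, 11 and 23. Under these filters 1 and 1 interaction was higher, as was 1 with DESeq2, beside 2. Genes lower with AKTi numbered 2 with DESeq2 and with at least 10 counts in every library, beside 1. Leaving out single libraries gave 1 to 2 genes lower with AKTi (2 without DMSO replicate A or B, AKTi replicate A, or EZH2i replicate A or C) and 2 to 4 interactions higher (4 without AKTi replicate A). For EZH2i it gave 28 to 30 higher and 4 to 6 lower, with 4 lower without DMSO replicate C or EZH2i replicate A. The other counts kept within 1.5 times their main value under the alternatives run. Of 103 called results for single genes, 79 kept their call in every alternative run and 24 lost it in at least 1, and none changed sign. Library letters were not treated as pairs, as deviations of libraries with the same letter correlated at -0.058 to 0.069 over 18 pairs and 4 of 12 libraries correlated best with their own letter. A replicate block gave 30 higher and 6 lower genes for EZH2i, 11 and 1 for AKTi, 29 and 4 for the combination over DMSO, 11 and 4 over EZH2i, 23 and 6 over AKTi, and 2 and 7 interactions. Depth limits the 22 tested genes with low DMSO counts and the 86 untested genes, for which no difference in a single gene could be tested.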

Other observations

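Among 28 noncoding genes named after a channel gene, 1 passed the filter on low counts. KCNQ1OT1, the antisense transcript within KCNQ1 known from imprinting, averaged 79.4 ± 26.5 normalized counts in DMSO, 75.3 ± 18.6 with ipatasertib, 96.7 ± 14.1 with tazemetostat and 109 ± 29.4 with both (SD, n = 3). The log2 fold change was 0.31 ± 0.22 SE (edgeR adjusted p = 0.22) in EZH2i and 0.50 ± 0.22 SE (edgeR adjusted p = 0.041) in the combination, beside 1.37 ± 0.18 and 1.42 ± 0.18 (SE) for KCNQ1. The strand setting of the counting is not given in the sources used here, so that reads of the pair cannot be told apart.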
